A study of Sus scrofa with 12 samples.

Results

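Mammals cannot make linoleic and alpha-linolenic acid, and the liver turns these dietary fatty acids into arachidonic acid, eicosapentaenoic acid and docosahexaenoic acid by steps of desaturation and elongation. The products are then placed in phospholipids or handed to other tissues, partly as lysophosphatidylcholine, a phospholipid with a single fatty acid chain. The genes described here act along this route. They are the fatty acid desaturases FADS2 and FADS1, the long-chain elongases ELOVL2 and ELOVL5, the phospholipid genes LPCAT3 and PEMT, and MFSD2A, a carrier of lysophosphatidylcholine best known for moving docosahexaenoic acid across the blood-brain barrier.

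The genes were taken from the deposited tables of liver mRNA by symbol, and 6 of the 7 names were found among 31694 rows. ELOVL5 was not found under that name. The RefSeq annotation of assembly Sscrofa11.1 ties it to LOC100171403, which is listed at 0 RPKM (reads scaled to gene length and to the size of the library) in all 6 libraries, so ELOVL5 was not analysed here. The remaining 6 genes were all above the limit on low values. The set was chosen by function and by the RPKM of these same pigs in JH against LD, so the differences of the 6 genes between the breeds are given as a description and carry no p-value.

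The liver came from 3 Jinhua (JH) pigs, a Chinese breed that grows slowly and deposits much fat, and from 3 Landrace (LD) pigs, a fast-growing lean breed. All were uncastrated males of 70 days of age with no treatment named, and each pig gave 1 mRNA library. The groups differ in breed, and body size, feeding state and origin of the animals cannot be told apart from it. The total number of reads behind the RPKM was recovered from the steps of the low values and ranged from 5744908 in JH1 to 7914514 in LD3. The label of the tissue was checked with markers: ALB, the gene of albumin, lay between 27533 and 53893 RPKM, while APOB, another hepatocyte marker, is listed at 0 in every library, so a listed 0 in these tables can be a failed estimate. The ribosomal RNA gene RN18S, a sign of how much ribosomal RNA was carried along, ranged from 1570 RPKM in JH2 to 62257 RPKM in JH3 and was 20160 RPKM in LD3.

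In JH the carrier MFSD2A, the elongase ELOVL2 and the methyltransferase PEMT were higher than in LD in every pig, and the desaturase FADS1 was lower in every pig. The desaturase FADS2 was lower in JH on average but overlapped between the breeds, and the acyltransferase LPCAT3 differed least and also overlapped. In bulk tissue, fewer cells of a type and less RNA per cell cannot be told apart. The comparison was made in limma on log2(RPKM + 0.1) across the 12993 genes that reached 0.5 RPKM in 3 or more libraries. To pass, a gene needed a p-value below 0.05 after Benjamini-Hochberg adjustment over all these genes and a log2 fold change beyond 1 in either direction. Of the 6 genes, FADS1 and MFSD2A passed, 1 in each direction, beside 2.39% of all tested genes. The breeds differed in 5 of the 6 by more than 1 on the log2 scale, as did 12.9% of all tested genes. All 3 JH values lay on the same side of all 3 LD values in 4 of the 6 genes, beside 23.4% of all tested genes. Nothing is read from these counts, since the genes were chosen with this comparison known. The count also moved with single libraries. None of the 6 genes passed without JH2, LD1 or LD2. Only FADS1 and FADS2 passed without JH1, only MFSD2A and PEMT without JH3, and only MFSD2A without LD3.

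**Figure D1:**
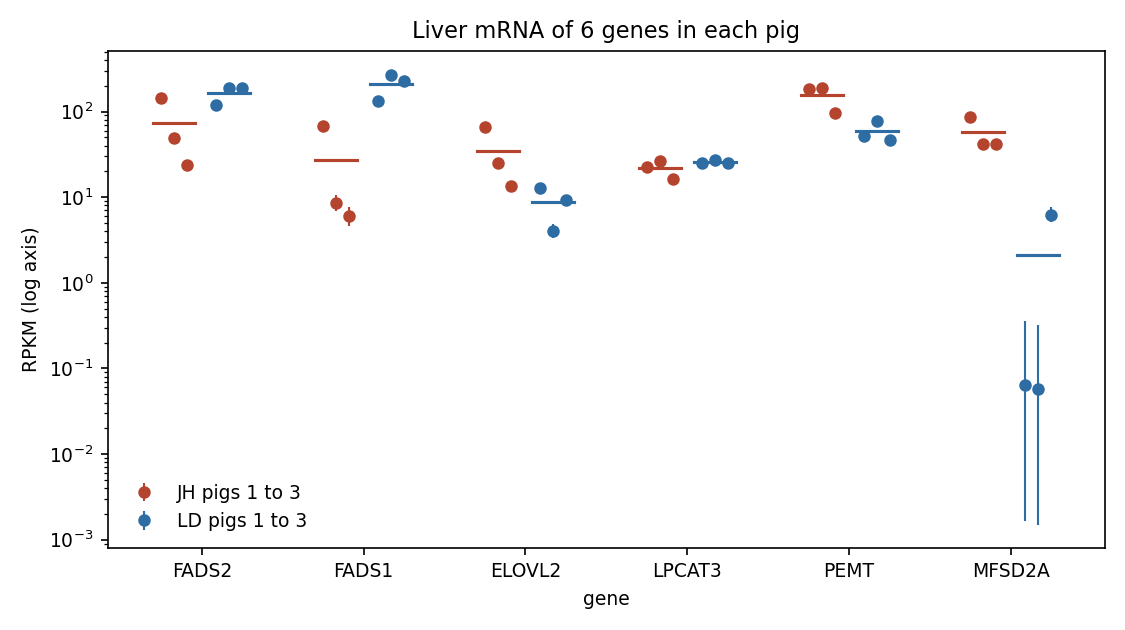
RPKM of each gene (log axis) in the 3 JH and the 3 LD pigs, with pigs 1 to 3 from left to right within a breed, lines at the mean and bars at the 95% Poisson interval of the reads. MFSD2A, ELOVL2 and PEMT lie higher in all JH pigs, FADS1 lies lower in all JH pigs, and the MFSD2A values of LD1 and LD2 each rest on 1 read.

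FADS2 puts in the delta-6 double bond that opens the route from linoleic and alpha-linolenic acid. Its level was 145 RPKM in JH1, 48.7 in JH2 and 23.5 in JH3, against 120 in LD1, 190 in LD2 and 188 in LD3. JH1 stood between LD1 and the other LD pigs, while JH2 and JH3 lay below every LD pig, so the breeds overlapped. The values rest on 271 to 2232 reads. The mean was 72.5 ± 64.4 RPKM (SD, n = 3) in JH and 166 ± 39.5 RPKM (SD, n = 3) in LD, 2.29-fold higher in LD. The log2 fold changes given here, JH over LD, are differences of mean log2(RPKM + 0.1) and not the log2 of the ratio of mean RPKM. For FADS2 the log2 fold change was -1.56 (standard error 0.56), with a range from -0.95 without JH3 to -2.26 without JH1.

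FADS1 puts in the delta-5 double bond that yields arachidonic and eicosapentaenoic acid. Its level was 67.4 RPKM in JH1, 8.65 in JH2 and 6.04 in JH3, which rest on 514, 89 and 62 reads. In LD it was 134 RPKM in LD1, 269 in LD2 and 228 in LD3, on 1267 to 2821 reads. The groups did not overlap, and the lowest LD pig was 1.99-fold above the highest JH pig, JH1. The mean was 27.4 ± 34.7 RPKM (SD, n = 3) in JH and 211 ± 69.1 RPKM (SD, n = 3) in LD, 7.69-fold higher in LD. The log2 fold change was -3.72 (standard error 0.77), and 29 of the 12993 tested genes had a lower one. Leaving out single libraries moved it from -4.79 without JH1 to -3.06 without JH3.

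The JH pigs differed widely from one another in both desaturases. From the highest to the lowest JH pig, FADS1 spanned 11.2-fold and FADS2 spanned 6.18-fold. On the log2(RPKM + 0.1) scale only 1.45% of tested genes spanned a wider range among the JH pigs than FADS1 and 3.46% a wider range than FADS2. In LD the spans were 2.0-fold for FADS1 and 1.58-fold for FADS2, and 21.9% and 46.4% of tested genes spanned a wider range there. FADS1, FADS2, ELOVL2 and MFSD2A were highest in JH1 among the JH pigs, as were 42.7% of tested genes. All 6 genes were lowest in JH3, as were 55.8% of tested genes. JH3 is the library with the highest RN18S value, and the part of RN18S in these orders was not tested.

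Within a pig, FADS2 was above FADS1 in every JH liver and below it in every LD liver. The ratio of FADS1 to FADS2 RPKM was 0.464, 0.178 and 0.257 in JH1 to JH3 and 1.12, 1.42 and 1.22 in LD1 to LD3. This ratio is free of the scaling of a library, since both genes are read in the same pig. It averaged 0.299 ± 0.148 (SD, n = 3) in JH, while the LD pigs averaged 1.25 ± 0.154 (SD, n = 3).

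FADS1 and FADS2 lie next to each other in the order of protein-coding genes of the RefSeq annotation of Sscrofa11.1, a later build than the one the files use. Of the 20 genes that are the nearest tested neighbours of the 6 genes in this order, none passed in limma, beside 2.39% of all tested genes, and 5 had an unadjusted p under 0.05, beside 17.9% of all tested genes. Their median log2 fold change was 0.16. Some of the 20 are not adjacent, since untested genes or genes without a matching symbol were passed over. In this order 17 genes lie between SLC5A10 and PEMT and 16 between SLC2A3 and LPCAT3. The genes that flank the desaturase pair are named here after their values were seen. FADS3, a paralog of low expression, had a log2 fold change of -0.48 (standard error 0.45), FEN1, a DNA repair nuclease, 0.31 (standard error 0.40), and TMEM258, a subunit of the oligosaccharyltransferase, 0.12 (standard error 0.31).

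A non-coding gene at the same place had values close in proportion to those of FADS2. LOC100739565, annotated as a long non-coding RNA whose span overlaps that of FADS2 in Sscrofa11.1, had 17.4, 6.30 and 3.62 RPKM in JH1 to JH3 and 13, 23.4 and 26.6 RPKM in LD1 to LD3. Of all tested genes its profile over the 6 libraries was the most like that of FADS2, with a root mean square difference of 0.17 on the log2 scale after each profile was centred on its own mean. Its ratio to FADS2 stayed between 0.108 and 0.154 in the 6 pigs. Whether reads were assigned by strand is not given in the sources used here, so reads of the overlapping genes cannot be told apart.

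**Figure D2:**
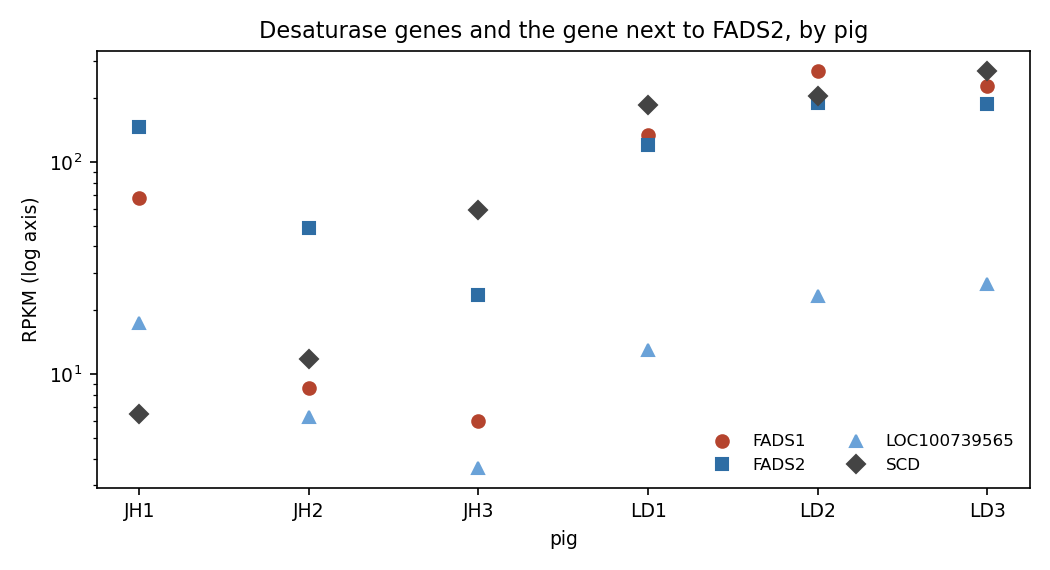
RPKM (log axis) of FADS1, FADS2, the overlapping gene LOC100739565 and SCD in each pig. LOC100739565 keeps the order of FADS2 among the JH pigs, whereas SCD has its lowest JH value, 6.48 RPKM, in JH1, where FADS1 and FADS2 have their highest.

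ELOVL2 lengthens polyunsaturated chains on the way to docosahexaenoic acid. Its level was 65.9 RPKM in JH1, 25.1 in JH2 and 13.5 in JH3, against 12.9 in LD1, 4.04 in LD2 and 9.37 in LD3, on 122 to 1451 reads. Every JH pig was above every LD pig, but the lowest JH pig exceeded the highest LD pig by only 1.04-fold, and the 95% Poisson intervals of the reads of JH3 (12.2 to 14.9 RPKM) and LD1 (11.6 to 14.3 RPKM) overlapped. The mean was 34.9 ± 27.6 RPKM (SD, n = 3) in JH and 8.77 ± 4.47 RPKM (SD, n = 3) in LD, 3.97-fold higher in JH. The log2 fold change was 1.82 (standard error 0.58) and went from 1.21 without JH1 to 2.35 without JH3.

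The elongase was higher in the breed in which the mean of both desaturases was lower. Among the JH pigs it had the same order as both, from JH1 over JH2 to JH3. MFSD2A had this order too, and of all tested genes 42.7% were highest in JH1 and 55.8% lowest in JH3. ELOVL2 reached 0.454, 0.517 and 0.572 of the FADS2 RPKM in JH1 to JH3, a narrow range beside the 6.18-fold span of FADS2 itself. In LD1 to LD3 it reached 0.107, 0.0213 and 0.05 of FADS2. Against FADS1 the ratio was between 0.978 and 2.91 in JH and between 0.0150 and 0.0960 in LD. Gene length is already divided out in RPKM, so these are ratios of levels per length.

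**Figure D3:**
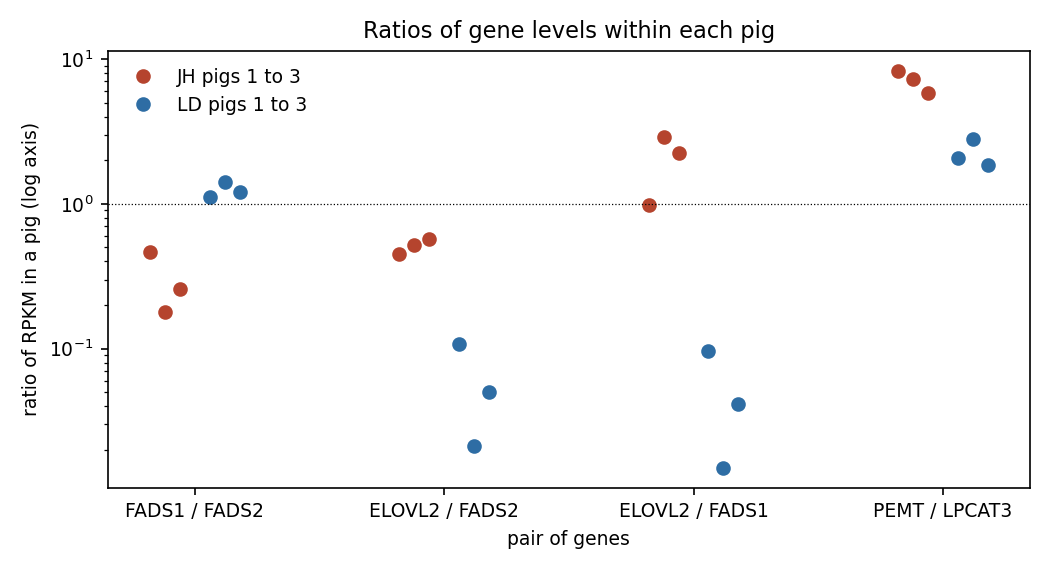
Ratio of the RPKM of 2 genes within each pig (log axis, dotted line at equal levels) for FADS1 to FADS2, ELOVL2 to FADS2, ELOVL2 to FADS1 and PEMT to LPCAT3. The 3 JH and the 3 LD values of each of these ratios do not overlap, and FADS1 to FADS2 lies under 1 in all JH pigs and over 1 in all LD pigs. Since ELOVL2 is higher and FADS1 lower in every JH pig, the ratio of ELOVL2 to FADS1 could not overlap. The ratios of SCD to FADS2, SCD to FADS1 and FADS6 to FADS2, genes taken up below, are not drawn and overlapped between the breeds.

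LPCAT3 joins arachidonic and linoleic acid to lysophospholipids in the liver. Its level was 22.3 RPKM in JH1, 26.2 in JH2 and 16.5 in JH3, against 25.2 in LD1, 27.4 in LD2 and 25.3 in LD3, on 253 to 429 reads. The JH2 value lay among the LD values and the other JH values below them. The gene EMG1 overlaps LPCAT3 in the RefSeq annotation, so here too shared reads cannot be told apart. The mean was 21.7 ± 4.86 RPKM (SD, n = 3) in JH and 26.0 ± 1.27 RPKM (SD, n = 3) in LD, with a log2 fold change of -0.29 (standard error 0.25). Its LD values lay closer together than those of most genes, and 97.5% of tested genes spanned a wider range in LD.

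PEMT methylates phosphatidylethanolamine to phosphatidylcholine, and the phosphatidylcholine made in this way is rich in polyunsaturated chains. Its level was 186 RPKM in JH1, 190 in JH2 and 96.7 in JH3, against 52.2 in LD1, 77.5 in LD2 and 46.8 in LD3. All JH pigs were above all LD pigs, and the lowest JH pig exceeded the highest LD pig by 1.25-fold. The mean was 158 ± 52.8 RPKM (SD, n = 3) in JH and 58.8 ± 16.4 RPKM (SD, n = 3) in LD, 2.68-fold higher in JH. The log2 fold change of 1.39 (standard error 0.33) stayed between 1.22 and 1.71 when single libraries were left out. The ratio of PEMT to LPCAT3 was between 5.86 and 8.32 in JH and between 1.85 and 2.83 in LD. PEMT has the shortest gene model of the 6, with 559 bases in the length recovered from its values, so its RPKM rest on 207 to 826 reads.

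MFSD2A showed the widest difference of the 6 genes. Its level was 87.5 RPKM in JH1, 42.3 in JH2 and 42.0 in JH3, on 1093, 714 and 707 reads. In LD it was 0.0648 RPKM in LD1 and 0.0583 in LD2, each a single read, and 6.28 RPKM in LD3, on 108 reads. The 95% Poisson interval of 1 read reaches 0.361 RPKM in LD1 and 0.325 in LD2 and covers counting error only. The transcript was thus close to the limit of detection in LD1 and LD2, above 60.3% of tested genes in LD3 and above 87.5% to 93.3% of them in the JH pigs.

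The lowest JH value of MFSD2A was 6.70-fold above LD3, the highest LD pig. The mean was 57.3 ± 26.2 RPKM (SD, n = 3) in JH and 2.13 ± 3.59 RPKM (SD, n = 3) in LD, 26.9-fold higher in JH. The log2 fold change was 6.62 (standard error 1.21), and 2 of the 12993 tested genes had a higher one. Its size depends on the pseudocount, with 7.40 for a pseudocount of 0.01 and 4.77 for a pseudocount of 1, and on LD3, without which it was 8.38. From LD2 to LD3 the values spanned 108-fold, and 12 tested genes (0.0924%) spanned a wider range in LD on the log2(RPKM + 0.1) scale. The nearest tested genes on either side of MFSD2A, named after their values were seen, had log2 fold changes of 0.21 for MYCL, 0.43 for TRIT1, -1.17 for PPT1 and 0.05 for RLF, and none of the 4 passed in limma.

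**Figure D4:**
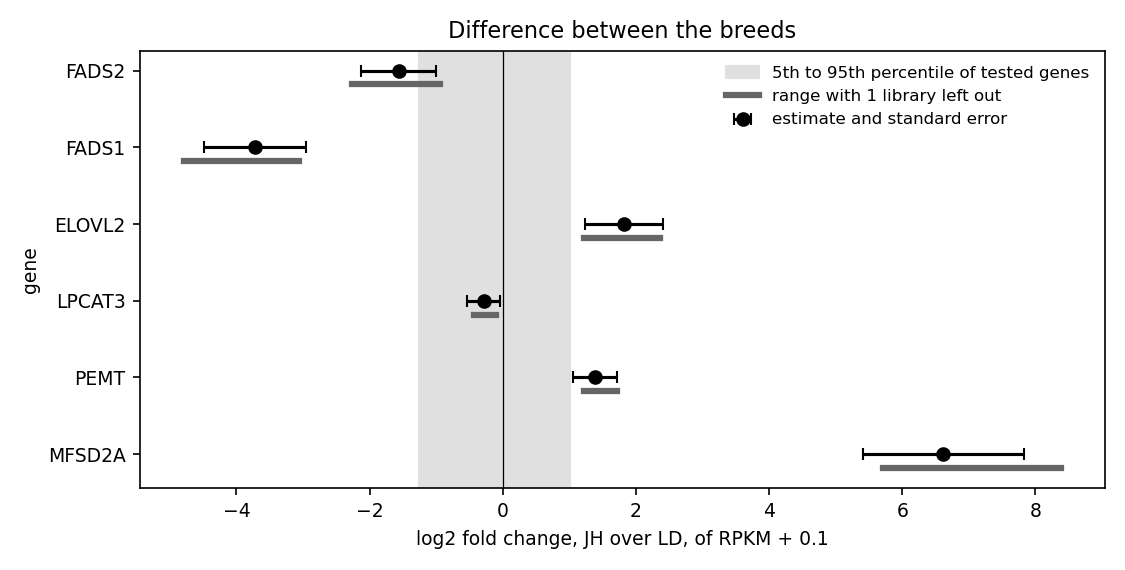
Log2 fold change of JH over LD, on RPKM + 0.1, of each gene with its standard error (points and thin bars) and the range over the 6 fits that each left out 1 library (thick bars). The shaded band holds the tested genes from the 5th to the 95th percentile (-1.26 to 1.01), and LPCAT3 lies inside it.

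The order of levels in the liver differed between the breeds. In JH it ran from PEMT over FADS2, MFSD2A, ELOVL2 and FADS1 to LPCAT3, and the ranges of the 3 pigs overlapped for every pair of neighbours in this order. In LD it ran from FADS1 over FADS2, PEMT, LPCAT3 and ELOVL2 to MFSD2A. There the ranges overlapped for FADS1 with FADS2 and for ELOVL2 with MFSD2A and lay apart for the other neighbours. FADS1 was the first of the 6 genes in every LD pig and the last in JH2 and JH3.

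The profiles most like those of each gene over the 6 libraries were found in the same way as for FADS2. For MFSD2A the closest was APOA4, an apolipoprotein of triglyceride-rich particles, with a root mean square difference of 1.43 on the log2 scale. APOA4 had between 846 and 6705 RPKM in JH, 3.04 in LD1, 3.10 in LD2 and 19.6 in LD3, and LD3 was the highest LD pig for both genes. For PEMT the closest were A1BG, a plasma glycoprotein, at 0.09 and GALT, an enzyme of galactose breakdown, at 0.14. For ELOVL2 they were LOC100518027 at 0.34 and PDZK1IP1 at 0.38, for LPCAT3 LOC100739413 at 0.06 and DAPK1, a protein kinase, at 0.07, and for FADS1 LOC102162264 at 0.43 and LOC102158685 at 0.60. NUGGC was second for FADS2 at 0.32, and LOC100739719 was second for MFSD2A at 1.52. LOC102162264 is listed at 0 RPKM in JH2 and JH3, and LOC100739719 at 0 RPKM in LD1 and LD2. In those libraries their log2 values are set by the pseudocount. The likeness of MFSD2A to its closest genes was weaker than that of the other 5 genes to theirs.

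Other genes of the route were taken from 8 lists of 109 genes in all, of which 83 were tested. In limma, 3 of the 83 passed, 1 higher in JH and 2 lower in JH, beside 1.02% and 1.36% of all tested genes. An unadjusted p under 0.05 was found for 17 of the 83, beside 17.9% of all tested genes. The median log2 fold change of the 83 genes was -0.08, against 0.04 over all tested genes. All 3 JH values lay above all 3 LD values in 11 of the 83 and below them in 11, beside 10.8% and 12.5% of all tested genes. The regulators SREBF1 and SREBF2 are listed at 0 in every library.

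Among the partners of desaturation and elongation, 1 of 15 tested genes passed. SCD, the stearoyl-CoA desaturase that makes oleic acid, had 6.48 RPKM in JH1, 11.8 in JH2 and 59.3 in JH3 against 185, 204 and 267 in LD1 to LD3. It fell in JH by 3.70 on the log2 scale (standard error 0.67, limma adjusted p = 0.0301). SCD no longer passed without JH2 (adjusted p = 0.0848), LD1 (0.105), LD2 (0.0936) or LD3 (0.0774), nor with no filter on low values (0.0512), all from limma. Among the JH pigs SCD was lowest in JH1, the pig highest in FADS1 and FADS2, and highest in JH3, the pig lowest in both. CYB5A, the cytochrome b5 that feeds electrons to the desaturases, was the most abundant of the list at 1085 ± 259 RPKM (SD, n = 3) in JH and 763 ± 259 RPKM (SD, n = 3) in LD and did not pass (log2 fold change 0.54, adjusted p = 0.422). FADS6, named after its values were seen, had 44.5 ± 30.1 RPKM (SD, n = 3) in JH and 137 ± 22.9 RPKM (SD, n = 3) in LD and did not pass (log2 fold change -1.82, adjusted p = 0.0709). Of the 15 genes 11 had a log2 fold change below 0, with a median of -0.34.

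The last step to docosahexaenoic acid is a round of chain shortening in peroxisomes. None of its 7 tested genes passed in limma, and 1 had an unadjusted p under 0.05, SCP2, a thiolase and lipid carrier, with 201 ± 58.2 RPKM (SD, n = 3) in JH and 111 ± 30.6 RPKM (SD, n = 3) in LD (log2 fold change 0.86, adjusted p = 0.18). The thiolase ACAA1 had a log2 fold change of 0.71 (adjusted p = 0.303), and the multifunctional enzyme HSD17B4 one of 0.34 (adjusted p = 0.564). The median of the list was 0.34.

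Of 18 tested genes of fatty acid exchange in phospholipids 1 passed. AGPAT4, an acyltransferase, had 2.24 ± 0.411 RPKM (SD, n = 3) in JH and 0.672 ± 0.123 RPKM (SD, n = 3) in LD, on 9 to 35 reads, and rose in JH by 1.60 on the log2 scale (standard error 0.33, limma adjusted p = 0.0445). It no longer passed with any 1 of the 6 libraries left out, with an adjusted p of 0.141 without JH1, 0.112 without JH2, 0.056 without JH3, 0.131 without LD1, 0.096 without LD2 and 0.122 without LD3. Nor did it pass with no filter on low values (limma adjusted p = 0.0804), a minimum of 1 RPKM (0.0539) or a pseudocount of 0.01 (0.053), and with a pseudocount of 1 its log2 fold change was 0.95. The most abundant genes of the list, PLA2G12B and AGPAT2, did not pass, with log2 fold changes of 0.06 (adjusted p = 0.909) and 0.49 (adjusted p = 0.506).

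The other routes to phosphatidylcholine and phosphatidylethanolamine, which run beside PEMT, held 8 tested genes. None passed in limma and none had an unadjusted p under 0.05. CHPT1, the last enzyme to phosphatidylcholine, had a log2 fold change of 0.16 (adjusted p = 0.774), ETNK2, an ethanolamine kinase, 0.19 (adjusted p = 0.734) and EPT1, which joins phosphoethanolamine to diacylglycerol, -0.58 (adjusted p = 0.585).

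PEMT uses S-adenosylmethionine, and of 9 tested genes that supply or use this methyl donor none passed in limma, while 4 had an unadjusted p under 0.05, beside 17.9% of all tested genes. All 3 JH values lay above all 3 LD values in 5 of the 9, beside 10.8% of all tested genes. NNMT, which methylates nicotinamide, had 114 ± 41.9 RPKM (SD, n = 3) in JH and 46.5 ± 29.7 RPKM (SD, n = 3) in LD (log2 fold change 1.51, adjusted p = 0.187). BHMT and GAMT, the most abundant of the list, had log2 fold changes of -0.01 (adjusted p = 0.987) and 0.27 (adjusted p = 0.648).

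Of 9 tested genes of lysolipid supply and transport 1 passed. FABP1, the liver fatty acid-binding protein, had 237 RPKM in JH1, 847 in JH2 and 889 in JH3 against 2224, 3482 and 3364 in LD1 to LD3. It fell in JH (log2 fold change -2.40, standard error 0.49, limma adjusted p = 0.0416). FABP1 no longer passed in limma without JH2 (adjusted p = 0.0577), LD1 (0.11), LD2 (0.141) or LD3 (0.118), nor under median scaling (0.0527), with a pseudocount of 0.01 (0.053) or with no filter on low values (0.0903). Hepatic lipase LIPC, which cuts phospholipids of lipoproteins to lysolipids, had a log2 fold change of -0.10 (adjusted p = 0.918). MFSD2B, the paralog of MFSD2A, was under the limit on low values in the test, at 0.0564 to 0.346 RPKM.

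None of 7 tested regulators of sterol and fatty acid sensing passed in limma, and 1 had an unadjusted p under 0.05. INSIG1, a brake on sterol regulatory element-binding proteins, had 45.7 ± 12.4 RPKM (SD, n = 3) in JH and 84.3 ± 33.8 RPKM (SD, n = 3) in LD (log2 fold change -0.83, adjusted p = 0.28), and NR1H3, the liver X receptor alpha, had a log2 fold change of 0.18 (adjusted p = 0.757). Of 10 tested genes that oxygenate polyunsaturated fatty acids or process the products none passed in limma, and 2 had an unadjusted p under 0.05. PTGES, a prostaglandin E synthase, had 1.69 ± 0.0750 RPKM (SD, n = 3) in JH and 3.79 ± 0.544 RPKM (SD, n = 3) in LD (log2 fold change -1.11, adjusted p = 0.0621). The epoxide hydrolases EPHX1 and EPHX2 had log2 fold changes of -0.19 (adjusted p = 0.801) and -0.71 (adjusted p = 0.165).

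**Figure D5:**
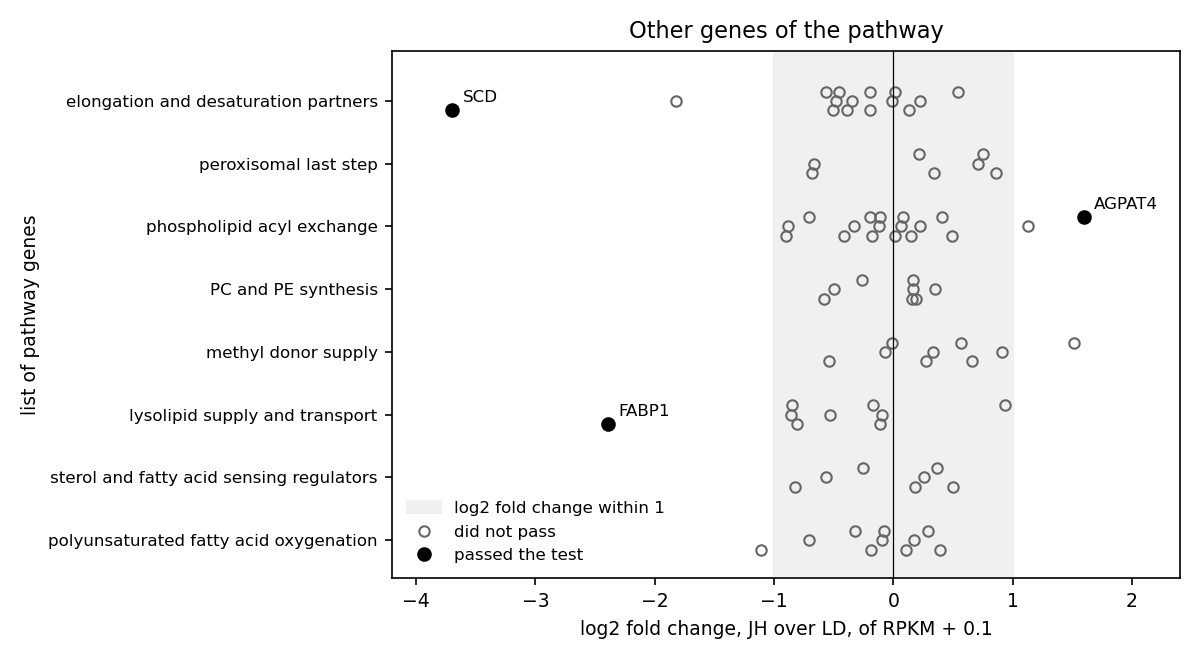
Log2 fold change of JH over LD, on RPKM + 0.1, of the 83 tested genes in 8 lists of the route, with filled points for genes that passed in limma and the band at an absolute log2 fold change within 1. SCD and FABP1 were lower in JH, AGPAT4 was higher, and the other 80 genes did not pass (PC and PE stand for phosphatidylcholine and phosphatidylethanolamine).

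Markers of other liver cells also differed between the breeds. The summed RPKM of 8 stellate cell and fibroblast markers was between 79.9 and 101 in JH and between 194 and 390 in LD, and 3 of the 8 passed, all lower in JH (COL1A1, COL1A2 and COL3A1), beside 1.36% of all tested genes. The sum of 4 erythroid markers was between 90.4 and 123 in JH and between 213 and 393 in LD and is almost all HBB in every library. That of 3 bile duct markers was 1.55 to 2.13 in JH and 5.24 to 9.64 in LD. Each of these 2 lists was written with 5 markers, of which 2 were tested. In each, 1 of the 2 tested genes passed and was lower in JH, HBB and EPCAM, beside 1.36% of all tested genes. The sums overlapped between the breeds for 7 endothelial markers (172 to 283 in JH, 222 to 279 in LD), 6 macrophage markers (319 to 784 and 465 to 526, CD163 at 0 in every library), 8 lymphocyte markers (27.8 to 103 and 35 to 42.8) and 3 adipocyte markers (0.259 to 1.75 and 0.612 to 2.33, LEP at 0 in every library). The endothelial sum is mostly CLEC4G, while all 7 endothelial markers had a log2 fold change below 0, with a median of -0.48. In 3 of them (PECAM1, KDR and VWF) every JH pig was below every LD pig, beside 12.5% of all tested genes. VWF was low, at a mean of 0.839 RPKM in JH and 1.32 RPKM in LD. Of these 4 lists, none of the 20 tested genes passed in limma and 4 had an unadjusted p under 0.05, beside 17.9% of all tested genes. The sums of 8 hepatocyte markers were 56470 to 68180 in JH and 69320 to 83840 in LD. In limma 0 of 7 tested genes passed, with 3 at an unadjusted p under 0.05, beside 17.9% of all tested genes. ALB is the largest term of the hepatocyte sum in every library. The 7 markers went both ways, 3 with a log2 fold change above 0 and 4 below. Every JH pig was above every LD pig in APOA1, beside 10.8% of all tested genes. Every JH pig was below every LD pig in 3 of the 7 (ALB, TF and CPS1), beside 12.5% of all tested genes. The part of these markers in the differences of MFSD2A, FADS1 and the other 4 genes was not tested.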

How the data were processed

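Liver mRNA of 3 JH and 3 LD pigs was used, each library assigned by its public label. Single reads of 50 bp had been cleaned by the authors and mapped with TopHat2 (2.0.13 per the labels) on the Sus scrofa 10.2 build, and the deposited RPKM were made by the authors with gfold. The study tested genes with DEGseq on read numbers. The miRNA tables were not used here.

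RPKM were compared with limma 3.58.1 (R 4.3.3), with a trended prior variance, on log2(RPKM + 0.1), where the pseudocount shrinks the fold changes of low genes. Total reads and reads per gene were recovered as whole multiples of the RPKM of 1 read (relative tolerance 1.2e-05). Poisson intervals of 95% cover counting error only. Both steps were tested on simulated data. The set of genes and the lists were chosen with earlier results of these data known.

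Named genes are the 6 members and, per list, those that passed, the 2 with the highest mean RPKM and the one with the largest absolute log2 fold change, the 2 closest profiles of each member, and passing neighbours. Nothing says whether the pigs of a breed were related or sampled together, so the errors speak only for these 3 livers per breed. The standard errors of log2 fold changes are moderated by limma, which draws the variance of a gene toward the trend over all tested genes. They can thus be smaller or larger than the spread of that gene alone would give. Python 3.11.15, pandas 2.3.3, numpy 2.4.6, scipy 1.17.1 and matplotlib 3.10.9 were used. Alternatives were other pseudocounts and filters, quantile normalization, median scaling, no fold change limit, the replicate number as a block, and each library left out.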

Additional observations from a re-analysis of the deposited data

How the results depend on the processing

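All 6 genes kept the direction of their log2 fold change in every alternative run, and so did SCD, FABP1 and AGPAT4. The count of genes that passed in limma depended on the setting. Of all tested genes 310 passed, against 200 with no filter on low values, 199 with a pseudocount of 0.01 and 79 to 406 with 1 library left out (164 without JH1, 150 without JH2, 406 without JH3, 79 without LD1, 114 without LD2 and 149 without LD3). Of the 6 genes 2 passed, against 0 with no filter and 0 with a pseudocount of 0.01. With PEMT added, 3 passed under median scaling and 3 under quantile normalization, beside 384 and 398 of all tested genes. From 0 to 2 of the 6 genes passed with 1 library left out. These counts are a description, since the 6 genes were chosen with this comparison known. Of the 83 pathway genes 3 passed, against 0 with no filter (17 at an unadjusted p under 0.05), 1 with a pseudocount of 0.01, 5 under quantile normalization, 3 under median scaling, where PTGES took the place of FABP1, and 0 to 3 with 1 library left out (0 without JH2, LD1, LD2 or LD3, with 18, 12, 12 and 20 at an unadjusted p under 0.05 in limma). Under quantile normalization the log2 fold changes of PLA2G12B and NR1H3 changed sign to -0.0625 and -0.019. With 1 library left out, those of PLA2G12B (-0.0042 to 0.15), BHMT (-0.13 to 0.15) and LIPC (-0.53 to 0.16) crossed 0. Apart from the construction of each alternative, the cause was not tested.

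The sources describe no pairing of pigs across the breeds, and deviations of same-numbered libraries correlated across genes at -0.02, 0.05 and 0.18. With the replicate number as a block, 253 genes passed, 200 of them among the 310, with 2 of the 6 genes (MFSD2A and PEMT) and 3 of the 83 (FABP1, PLA2G12A and SCD). Depth limits MFSD2A in LD1 and LD2, where 1 read each was counted, and AGPAT4 at 9 to 35 reads.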
